A study of Drosophila melanogaster with 3 samples.

Results

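In whole embryos of Drosophila melanogaster, 853 of the 3754 peaks of a GFP-tagged CG18764 lay in clusters, defined as runs of 3 or more peaks in which each summit, the highest point of a peak, was within 5000 bp of the next one. The clusters numbered 240 and held 22.7% of the peaks. The other peaks fell into 499 pairs (998 peaks) and 1903 single peaks, which had no other summit within 5000 bp and serve here as the comparison. Among the 3754 peaks, membership was set by position alone. The strength of the peaks, their places relative to genes, their sequence and their behaviour in the single replicates were not used directly to choose among them. The 3754 peaks had themselves passed a test of reproducibility between replicates. Close summits add to membership: with summits within 400 bp merged, 716 cluster peaks were left.

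The data come from chromatin immunoprecipitation with sequencing (ChIP-seq) with an antibody against GFP, in a transgenic line that stably expresses CG18764 with GFP at its C terminus. All samples belong to 1 group of 3 biological replicates from mixed-sex embryos aged 0 to 16 h, with chromatin sheared by sonication to a size range of 200 to 800 bp. The replicates were embryos of the same line at the same ages, and the samples analysed here hold no untagged, mutant or treated group, so every comparison below is between sets of peaks. Whole embryos of a wide age range mix all cell types, the tagged protein came from an inserted transgene, and sequencing depth is unknown because the lists hold peaks and not reads.

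The list analysed is the optimal list, the peaks that passed a test of reproducibility between replicates (the irreproducible discovery rate, IDR). Each replicate also has its own relaxed list, which goes down to weak signal and holds 30000 entries. Peaks are compared below by rank, where rank 1 is the highest signal value in a list, because the scale of the deposited signal value is not given in the sources used here. The optimal list was made from the same replicates, so their lists are not independent of it.

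CG18764 belongs to the ZAD zinc-finger proteins, a large family of insect DNA-binding proteins in which an N-terminal zinc-finger-associated domain joins 2 molecules and an array of C2H2 zinc fingers reads DNA. Some members of the family are known as insulator or architectural proteins that bind near promoters and hold distant sites together. Runs of close binding sites are known in flies from enhancer regions, from chromatin-regulated loci and from gene-dense stretches where promoters lie side by side.

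The sequences at the summits show what cluster members looked like, first for the longest chain, at the gene Raf, and then for 3 high-ranked cluster peaks whose windows touch no annotated exon. Each is the 100 bp around a summit, read from the plus strand of the dm6 reference, with matches to 14 short motifs in capitals. 3 of the Raf windows shown held the repeat GAGAG or its reverse complement, and the other 2 Raf windows shown held no match. The windows of the first and last peaks of the chain, ranks 1745 and 2691, are not shown and held no match either. The Raf summit at rank 538, in an annotated 5′ UTR, was not among the windows.
Raf, rank 101, chrX:2297683-2297782: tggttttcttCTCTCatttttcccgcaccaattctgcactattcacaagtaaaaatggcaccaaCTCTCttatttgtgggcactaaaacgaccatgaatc
Raf, rank 1292, chrX:2299139-2299238: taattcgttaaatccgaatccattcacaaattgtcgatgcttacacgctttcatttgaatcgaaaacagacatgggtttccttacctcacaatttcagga
Raf, rank 840, chrX:2300625-2300724: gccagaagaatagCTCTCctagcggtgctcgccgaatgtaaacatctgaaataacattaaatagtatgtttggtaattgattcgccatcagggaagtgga
Raf, rank 1093, chrX:2302301-2302400: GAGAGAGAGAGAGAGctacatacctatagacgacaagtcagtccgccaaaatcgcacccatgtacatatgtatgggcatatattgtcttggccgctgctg
Raf, rank 914, chrX:2304043-2304142: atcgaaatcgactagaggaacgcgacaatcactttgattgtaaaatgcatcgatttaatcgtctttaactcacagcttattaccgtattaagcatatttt
cbt and ush, rank 7, chr2L:481008-481107: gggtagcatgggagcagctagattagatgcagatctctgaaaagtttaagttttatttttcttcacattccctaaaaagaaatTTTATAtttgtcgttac
ph-p, rank 22, chrX:2137286-2137385: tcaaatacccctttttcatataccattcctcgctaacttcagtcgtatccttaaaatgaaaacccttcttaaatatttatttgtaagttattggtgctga
Lk6, rank 25, chr3R:11761000-11761099: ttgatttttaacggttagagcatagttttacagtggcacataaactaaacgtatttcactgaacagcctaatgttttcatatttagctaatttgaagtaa

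Members of a chain that lay over 400 bp apart shared no long identical stretch of sequence. The search could not see repeated sites shorter than 20 bases or with differing bases. Among 1125 pairs of summits in the same chain that lay over 400 bp apart, 0 shared an identical stretch of 20 bases, on either strand, within 200 bp of both summits. The GAGAG repeat of the Raf windows was present in 8.91% of cluster peaks and in 9.25% of single peaks, and 10 of the 240 chains held it in 2 or more members.

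Most chains were short. There were 154 chains of 3 peaks, 55 of 4, 20 of 5, 7 of 6, 3 of 7 and 1 of 8. The median distance from the first to the last summit of a chain was 5005 bp, quartiles of 3606 and 6818 bp and extremes of 877 and 13380 bp. The 613 distances between neighbouring summits had a median of 1849 bp and ran from 199 to 4996 bp. They piled up at the short end: 60 were under 250 bp, 3 were between 250 and 400 bp, and 161 (26.3%) were under 1000 bp. The 63 neighbour pairs closer than 400 bp had a median distance of 202 bp, close to the minimum of 199 bp, so this excess sat at the shortest distance found. Of these 63 pairs, 53 had overlapping peak intervals and 34 were 2 summits at promoters of the same gene.

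**Figure D1:**
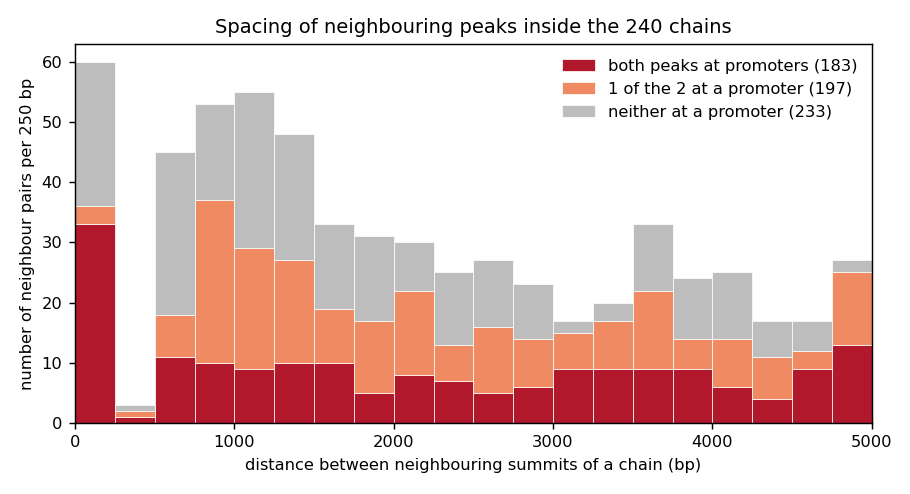
Distances between neighbouring summits inside the 240 chains, in bins of 250 bp, coloured by how many of the 2 peaks lie within 500 bp of an annotated start site. The first bin is the tallest with 60 pairs, the next holds 3, and the counts then decline from about 1000 bp outwards.

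The 5000 bp limit fell within a continuous range of distances. The widest steps inside chains were 4996 bp between 2 peaks at nuf (ranks 3088 and 2802), 4988 bp between peaks at Nepl8 and Tpr2, and 4956 bp at 2 further places. The nearest exclusions were single peaks 5003 bp from a neighbour at atos (rank 3241), 5004 bp at Psc (rank 494), and 5006 bp between CG10898 (rank 40) and sea (rank 773).

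A smaller share of cluster peaks than of single peaks lay at promoters. A summit lay within 500 bp of an annotated transcription start site, here called a promoter peak, for 395 of 853 cluster peaks (46.3%, 95% Wilson interval 43.0 to 49.7) and for 1045 of 1903 single peaks (54.9%, interval 52.7 to 57.1). Over the whole optimal list the share was 53%. Introns took the opposite place, with 323 cluster peaks (37.9%, interval 34.7 to 41.2) and 568 single peaks (29.8%, interval 27.8 to 31.9). Intergenic summits were 12.8% of cluster peaks and 12.9% of single peaks. Exons held few summits of either kind: 15 cluster peaks and 12 single peaks were in noncoding exons, 5 cluster peaks and 10 single peaks in 5′ UTRs, 5 cluster peaks and 16 single peaks in 3′ UTRs, and 1 cluster peak and 6 single peaks in coding exons. These intervals cover counting error only, and neighbouring peaks of a chain are not independent of each other.

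The same rule applied to each replicate on its own gave the same direction. Each relaxed list was reduced to its 3754 highest peaks and chained anew, which gave 770, 894 and 875 cluster peaks in replicates 1, 2 and 3 (846 ± 66.8, SD, n = 3) in 213, 250 and 241 chains. In replicate 1, 46.5% of cluster peaks and 51.8% of single peaks were at promoters. In replicate 2 the shares were 46.1% of cluster peaks and 53.9% of single peaks, and in replicate 3 they were 49.3% of cluster peaks and 56.8% of single peaks. The difference averaged -6.88 ± 1.40 percentage points (SD, n = 3) and was negative in 3 of 3 replicates, with p = 0.25 in a two-sided exact sign-flip permutation test, the smallest p that 3 replicates allow. For introns the difference was 8.55 ± 1.54 points, positive in 3 of 3 replicates (38.4% of cluster peaks and 29.9% of single peaks on average), with the same exact permutation p of 0.25. Intergenic peaks made up 11.1 ± 1.01% of cluster peaks and 13.6 ± 1.11% of single peaks in these lists. The difference was -2.56 ± 0.68 points (SD, n = 3), negative in 3 of 3 replicates with an exact sign-flip permutation p of 0.25. The optimal list showed almost none of it, at 12.8% of cluster peaks and 12.9% of single peaks.

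**Figure D2:**
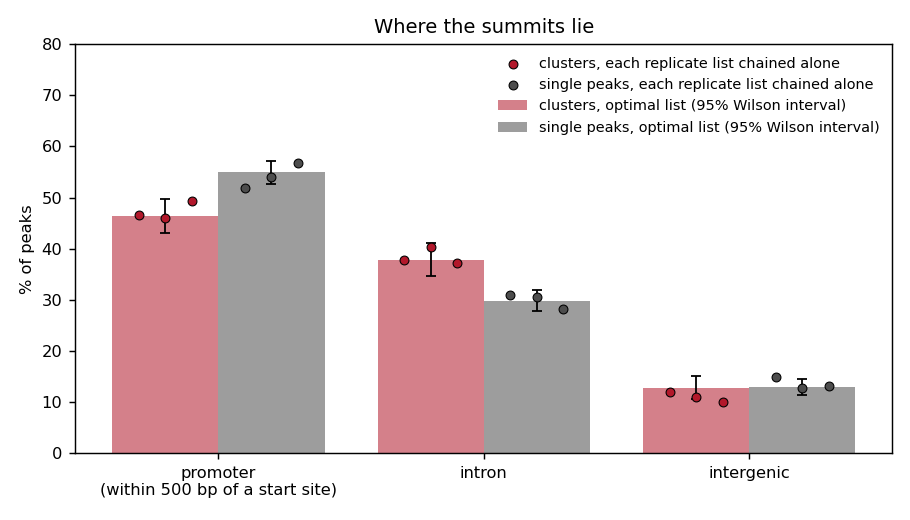
Share of summits at promoters, in introns and between genes for clusters (left of each pair) and single peaks (right). Bars are the optimal list with 95% Wilson intervals and points are the 3 replicate lists chained alone; all 3 cluster points lie below all 3 single points for promoters (46.1 to 49.3% against 51.8 to 56.8%) and above them for introns.

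Longer chains had lower promoter shares in the optimal list. It was 54.9% for single peaks, 55.2% for pairs, 48.9% for chains of 3, 47.7% for chains of 4 and 37.4% (interval 30.5 to 44.9) for the 171 peaks in chains of 5 to 8. Intron shares ran the other way, at 29.8%, 32.3%, 36.1%, 37.3% and 43.3% for the same sizes. The promoter intervals of chains of 3 (44.4 to 53.5) and of 4 (41.2 to 54.3) overlapped that of single peaks. The interval of chains of 4 also overlapped that of chains of 5 to 8, which lay below that of single peaks. The 171 peaks in chains of 5 to 8 came from 31 chains, and the intervals treat them as independent. Overlap of intervals is not a test of a difference, so which chain sizes differ from single peaks was not tested. The size of the difference depended on how close the peaks had to be: with a limit of 2500 bp it was -16.6 points (39.1% of 376 cluster peaks against 55.7% of single peaks), and with 10000 bp it was -4.06 points (50.3% of 1597 cluster peaks against 54.3% of single peaks). In the upper 1877 peaks of the list, chained anew, it was -14.0 points (47.0% of cluster peaks against 61.0% of single peaks).

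**Figure D3:**
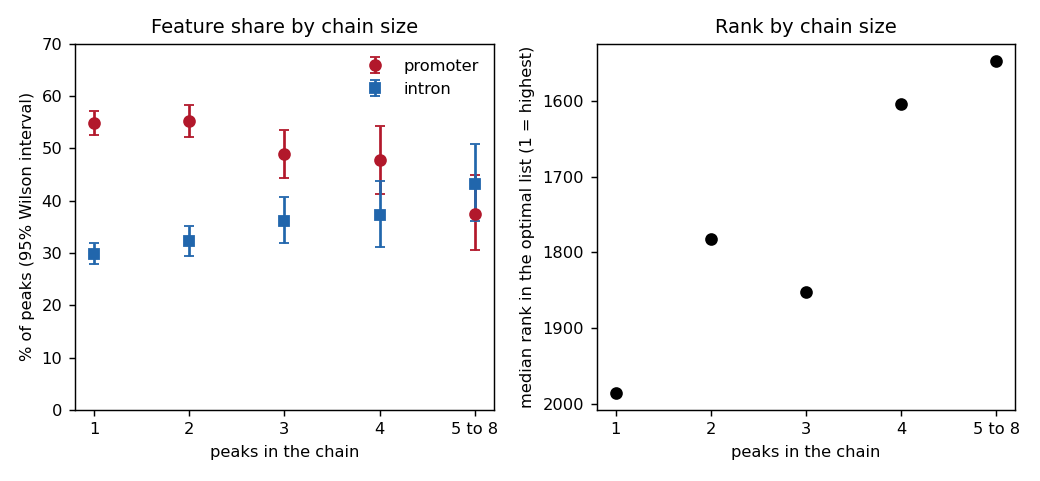
Left, share of peaks at promoters and in introns against the number of peaks in the chain, with 95% Wilson intervals. Right, median rank in the optimal list on an axis that runs upwards to rank 1; single peaks are the weakest (1986) and chains of 5 to 8 the strongest (1547).

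Cluster peaks outside promoters still lay nearer to start sites, but the chaining rule partly sets this distance and the start-site counts below. A member next to a promoter peak is near the start site of that peak, while a single peak has no promoter peak within 5000 bp. Of the 613 neighbour pairs in chains, 197 had exactly 1 promoter peak. How much of the difference goes beyond the rule was not tested. The median distance of cluster peaks outside promoters to the nearest start site was 1948 bp over 458 peaks. It was 3288 bp over 858 single peaks outside promoters, and 2018 bp in pairs. In the replicates' own lists the medians were 2052.5, 2244 and 2093 bp for cluster peaks and 3324, 3268.5 and 3165 bp for single peaks. The groups did not overlap, and the difference averaged -1123 ± 131 bp (SD, n = 3; exact sign-flip permutation p = 0.25, lower in 3 of 3). A cluster peak had a mean of 3.69 distinct start-site positions within 5 kb and a single peak had 3.04, with 3.83 for peaks of pairs, while the median was 3 for cluster and single peaks. In the replicates' own lists the mean number was higher by 0.71 ± 0.08 in clusters (3 of 3, p = 0.25 in the same permutation test).

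At promoters, the summits of both sets had close positions. The median position was -107 bp relative to the start site for cluster promoter peaks and -105 bp for single promoter peaks, and 85.8% of cluster promoter peaks and 83.6% of single promoter peaks were upstream of the nearest start site. Start sites on both strands were within reach for 38.7% of cluster promoter peaks (interval 34.1 to 43.6) and 40.4% of single promoter peaks (interval 37.4 to 43.4). These intervals overlap.

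Cluster peaks ranked somewhat higher than single peaks. In the optimal list their median rank was 1719 (quartiles 816 and 2727), against 1986 (1033.5 and 2879) for single peaks. In the relaxed lists, with a peak that had no summit within 100 bp placed below the last, the median rank of cluster peaks was 1875, 1813 and 1798 in replicates 1, 2 and 3, against 2072, 2054 and 2044 for single peaks. All 3 cluster medians were better than all 3 single medians, and the difference of -228 ± 27.0 ranks (SD, n = 3) had p = 0.25 in the exact sign-flip permutation test, lower in 3 of 3. The quartiles overlapped widely. Of cluster peaks 15.0% were among the 500 highest of the optimal list, against 11.6% of single peaks. Pairs were close to clusters, with 15.1% among the 500 highest, a median rank of 1782 in the optimal list and 1918, 1796.5 and 1893.5 in the replicates, so the higher rank is not particular to chains of 3 or more. At promoters the median rank was 1610 for cluster peaks, 1593 for pairs and 1773 for single peaks, and outside promoters it was 1853 for cluster peaks, 1984 for pairs and 2191 for single peaks.

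**Figure D4:**
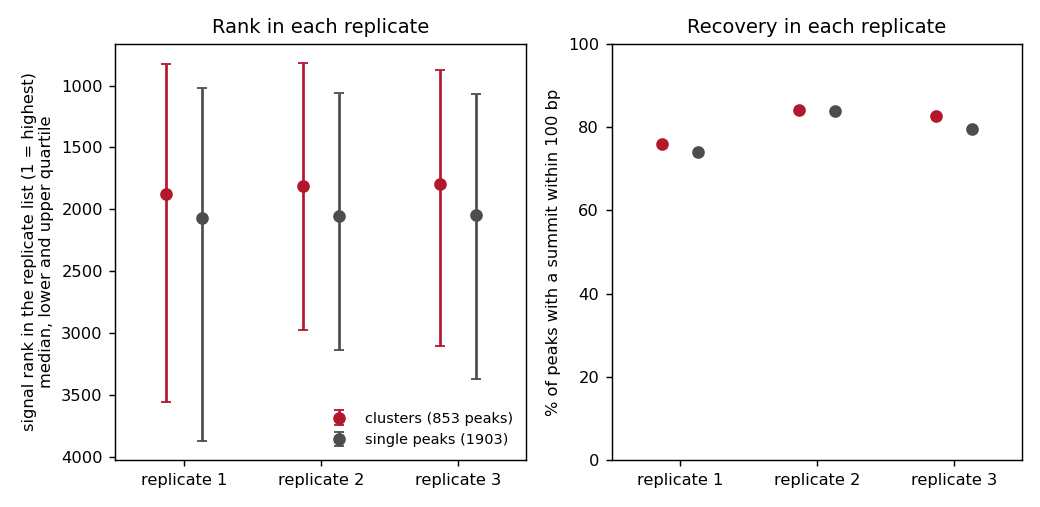
Left, median and quartiles of the rank of the 853 cluster peaks and 1903 single peaks in each replicate's relaxed list, on an axis that runs upwards to rank 1; in each replicate the cluster median is the higher. Right, share of the same peaks with a summit within 100 bp among the 3754 highest peaks of each replicate, 76.0 to 84.1% for clusters and 74.0 to 83.8% for single peaks.

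Recovery in the replicates differed little between the sets. A summit lay within 100 bp in the upper 3754 entries of the replicate list for 76.0%, 84.1% and 82.8% of cluster peaks in replicates 1, 2 and 3, against 74.0%, 83.8% and 79.7% of single peaks. The difference of 1.77 ± 1.44 points (SD, n = 3) was positive in 3 of 3 replicates but close to its own spread, with p = 0.25 in the exact sign-flip permutation test. With a window of 250 bp, in which 1 replicate summit can match 2 close neighbours, the difference was 5.19 points and the rank difference above was -416. All 3 replicates recovered 502 cluster peaks (58.9%) and 1052 single peaks (55.3%), beside 56.8% of the whole optimal list. No replicate recovered 16 cluster peaks and 27 single peaks.

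Many chains were recovered only in part. Of the 240 chains, 110 (45.8%) were met by a chain of 3 or more peaks in the own lists of all 3 replicates, 70 in 2 replicates, 41 in 1 and 19 in none. In 94 chains at least 3 of the optimal peaks were recovered in every replicate. In only 40 chains was every peak recovered in all 3 replicates.

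In most chains the replicates picked the same leader. Of 237 chains with a summit of every replicate, the same member was the strongest in all 3 replicates in 154 (65.0%), and each replicate named a different member in 11. Taken by size, that held for 93 of 151 chains of 3, 40 of 55 chains of 4 and 21 of 31 longer chains. Over all chains the strongest member had a median rank of 596.5 and the weakest 3089, values that follow from sorting the members by rank. Leaders were at promoters in 49.2% (interval 42.9 to 55.5) and the other members in 45.2% (interval 41.3 to 49.1), a difference within the intervals.

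Chains were of several kinds by their place in the genome. In 47 chains every peak was at a promoter, in 138 promoter peaks and other peaks were mixed, and in 55 no peak was at a promoter. A chain lay whole within at least 1 annotated gene in 62 cases, of which 36 had no promoter peak. The shortest gene that held the chain had a median length of 28.3 kb. 4 annotated genes held 2 chains each, namely CG1677, Tlk, ush and lncRNA:CR44357. A chain counts for every gene that holds it, so these need not be 4 separate loci. CG1677 and lncRNA:CR44357 both held 2 chains with 9 peaks in all. At the other end, 4 chains reached the promoters of 7 genes each, among them the 5-peak chain whose highest peak was near Ice2 and which also reached slmb, Usp8 and meigo.

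The chain with most peaks lay at Raf, the kinase that passes the signal of Ras to the MAP kinase cascade (X:2293744-2306560, 8 peaks over 12816 bp). 6 of its summits were in introns of Raf, 1 was in its annotated 5′ UTR and the first was 333 bp upstream of the neighbouring gene CG2865. The highest of them, 2267 bp downstream of the nearest Raf start site, ranked 101 in the optimal list and 96, 114 and 99 in replicates 1, 2 and 3. The last, 11094 bp from that start site, ranked 2691 and was at 3823, 4453 and 1639 in the replicates. The leader held its place in every replicate. When 1 replicate was left out and the list limited to peaks recovered by both others, the longest run of summits at most 5000 bp apart left here held 6 or 7 peaks.

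3 chains had 7 peaks in the optimal list, and 2 of them were shorter by over 1.5 times when a replicate was left out in the same way. One on X, at lncRNA:CR44619 and CG4004, had its highest peaks at ranks 42 and 75, both within 500 bp of the start of lncRNA:CR44619 and 964 bp apart. Their ranks in replicates 1, 2 and 3 were 67, 36 and 138 for the first and 70, 53 and 110 for the second. Its longest run left held 3 or 4 peaks with a replicate left out. A second chain ran from introns of msn, a Ste20-family kinase of JNK signalling, to the promoter of the ribosomal protein gene RpL8 and that of dos, an adaptor of receptor tyrosine kinases (3L:2578847-2590634). Its strongest peak, at rank 822, was in an intron of msn and ranked 805, 983 and 973 in the replicates, and the longest run left held 5 or 6 peaks with a replicate left out. The chain at scyl, a REDD-type inhibitor of TOR signalling, was the weakest of these, with a best rank of 1310. That leader had no summit within 100 bp in the relaxed list of replicate 3, while the next member, 205 bp away, was matched there at rank 1448. With any 1 replicate left out its longest run held 2 peaks, which is no longer a chain of 3.

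6 chains of 6 peaks were named beside these, and they show the range of settings. The chain at larp, an RNA-binding protein gene, was the widest in the optimal list at 13380 bp (3R:28326589-28339969), but its longest run left held 5, 2 and 3 peaks without replicates 1, 2 and 3. Its leader, 325 bp upstream of a larp start site, ranked 76 in the optimal list and 61, 87 and 78 in the replicates, and its last peak was at the shared promoter of Gfat2 and Moca-cyp. At l(2)k01209 on 2R, 4 summits lay at the start of the gene, 214, 905 and 551 bp apart, and 2 more lay 201 bp apart at the neighbours CG6550 and Mtap, the methylthioadenosine phosphorylase gene, one 92 bp upstream of the CG6550 start site and one 9 bp inside Mtap. This chain kept all 6 peaks whichever replicate was left out, but it held 4 with summits within 400 bp merged. All 6 summits at sbb, which encodes a transcriptional corepressor, were intronic, 12693 bp or more from a start site, and 4 of them ranked between 217 and 702. All 6 summits upstream of CG7560 were intergenic, and the 3 highest were close in strength (ranks 395, 498 and 663). The chain at CHES-1-like, a forkhead factor gene, lay whole inside the gene, with its 2 highest peaks at ranks 549 and 588, and its longest run left held 3 peaks without replicate 1 and 4 without either of the others. The chain around Rh5, a rhodopsin gene, and Hacd1 held 5 intergenic summits and 1 at the Rh5 promoter, and ranked no higher than 757. Its longest run left held 3 peaks without replicate 2 and 5 or 4 without replicates 1 or 3.

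**Figure D5:**
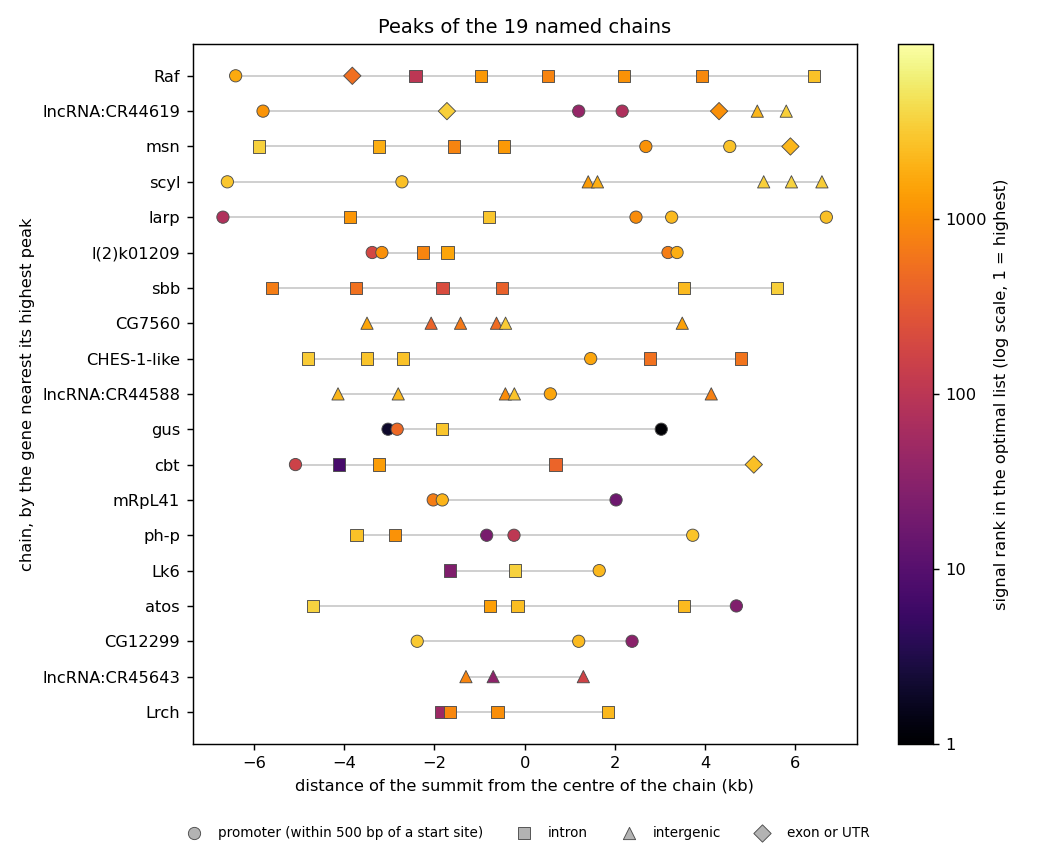
Positions of the summits in the 19 named chains, as distance from the middle of each chain; colour is the rank in the optimal list on a log scale (dark is high) and shape is the annotated feature. The upper 10 chains have the most peaks and the lower 9 were added for their high leaders; the darkest marks are the 2 promoter peaks of gus, ranks 1 and 2.

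The 2 highest peaks of the optimal list were cluster members of 1 chain, while ranks 3, 4 and 6 were single peaks. The gus chain on 2R held ranks 1 and 2, at 2 promoters of gus, a SOCS-box protein gene of the germ line, 6059 bp apart, with 2 weaker summits between them (460 and 2925). The summit at rank 460 lay 203 bp from that at rank 2, in the same peak interval. With summits within 400 bp merged, the chain held 3 peaks. In replicates 1, 2 and 3 the peak at rank 1 was at rank 1 throughout and that at rank 2 at ranks 2, 5 and 2. The chain led by rank 7 lay within ush, which encodes a cofactor of GATA factors, and its leader was intronic and 1370 bp upstream of cbt, a zinc-finger factor gene. That leader ranked 10, 9 and 8 in the replicates and the 5 peaks of the chain spanned 10163 bp (2L:480099-490262).

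4 further chains had leaders among the 26 highest peaks. The chain at ph-p, a Polycomb repressive complex 1 gene, had a pair of high peaks 606 bp apart, one 481 bp upstream of its nearest start site (rank 22; 14, 20 and 25 in the replicates) and one 429 bp downstream of its own (rank 106; 98, 100 and 122). At Lk6, which encodes a kinase of the translation factor eIF4E, the leader was intronic at rank 25 (21, 21 and 27 in the replicates) and the 2 others were weak, at ranks 3576 and 2295. The mRpL41 promoter held rank 17 (13, 13 and 26), 3853 bp from the nearer of 2 summits at the promoter of row, ranks 725 and 2104. Those 2 summits lay 201 bp apart, and with summits within 400 bp merged this chain held 2 peaks. The atos leader was a promoter peak at rank 26 (25, 27 and 23), followed in its chain by rank 1439, and the longest run left of that chain of 5 held 3, 1 and 2 peaks without replicates 1, 2 and 3. The longest runs left at mRpL41 without replicates 1 or 3, and at Lk6 and CG12299 without replicates 2 or 3, held 2 peaks, 1 below a chain of 3.

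The remaining high leaders differed in how much company they had. At CG12299 the leader (rank 32; 33, 37 and 30 in the replicates) stood at the shared promoter of CG12299 and Vha16-5, a V-ATPase subunit gene, and its neighbours at Nup107 and at the divergent pair EMC3 and Dpy-30L1 ranked 2369 and 3090. The 3 peaks at lncRNA:CR45643 on 3R were all intergenic and all high, at ranks 841, 35 and 163. The 4 peaks at Lrch were all intronic, with the leader at rank 50 in the optimal list and 213, 31 and 45 in the replicates, so that replicate 1 placed it lower than the others did. Counted over all chains, 105 of 240 had a member among the 500 highest peaks and 20 had 2 or more there.

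The highest single peaks were all at promoters. They were at CG3253 (rank 3), at Ugalt, which encodes a UDP-galactose transporter (rank 4), at eIF2Balpha (rank 6), at Art3, an arginine methyltransferase gene (rank 10), and at Chro, which encodes a chromatin protein of polytene interbands (rank 11). In contrast, 4 of the 10 highest chain leaders, those in the cbt, Lk6, lncRNA:CR45643 and Lrch chains, were outside promoters. These peaks were picked for their rank, so the contrast is a description.

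Across the annotation, 417 of 13968 protein-coding genes (2.99%) had a cluster promoter peak, 672 a peak of a pair and 1413 (10.1%) a single promoter peak, while 11466 had none. A gene with several is counted once, with clusters before pairs before single peaks. Counts for the gene groups below are read beside these shares and carry no test, and groups of under 25 genes move by 4 percentage points or more with 1 gene.

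Genes of protein synthesis made up the largest protein-coding groups. Of 93 cytosolic ribosomal protein genes, 14 (15.1%) had a cluster promoter peak, 16 a peak of a pair, 34 a single peak and 29 none. Promoter peaks of any kind were thus common in this group. Among its genes with a promoter peak, 21.9% had one of a cluster, beside 16.7% over all protein-coding genes with a promoter peak. The highest were RpL34b at rank 224 (159, 248 and 237 in the replicates), RpL13A at 336 (576, 304 and 350), RpS25 at 375 (553, 387 and 344) and RpL30 at 535 (669, 473 and 820). RpL12 and RpL39 shared a chain of 4, in which all peaks were at promoters. RpS14a and RpS14b, neighbouring copies of 1 gene, also shared a chain, and their summits were among the pairs that shared no stretch of 20 bases. Of 73 mitochondrial ribosomal protein genes, 6 (8.22%) had a cluster promoter peak, which is 26.1% of those with any promoter peak. They were led by mRpL41 (rank 17), mRpL34 (787), mRpL20 (1625) and mRpL19 (2995).

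Among chromatin genes the counts were small. Of 17 Polycomb group genes 1 was reached (ph-p), and of 17 trithorax and Brahma genes 2 were, namely Trl, which encodes the GAGA factor (rank 765), and skd, a Mediator kinase-module gene (rank 1977). Trl was also the only one reached of 18 insulator and architectural genes. Its chain had a higher member at rank 62, nearest to CG42507 and outside the Trl promoter.

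Developmental regulators gave a mixed picture. Of 21 Notch pathway genes 3 were reached: gro, the Groucho corepressor, at rank 154 (172, 190 and 143 in the replicates), E(spl)m3-HLH at 591 and E(spl)m7-HLH at 1438, which are Notch target repressors. gro and E(spl)m7-HLH belonged to 1 chain. Of 22 segmentation genes 1 was reached, bcd, the anterior determinant (rank 1279), and of 6 GATA factor genes and cofactors 1, ush (rank 2326), in the second of its chains. Of 15 EGFR and Ras signalling genes 2 were reached, spi, an EGFR ligand (rank 166; 173, 147 and 256), and aop, an ETS repressor (rank 2833). The Raf chain had no summit within 500 bp of a Raf start site, and Raf is therefore not among them. Of 15 muscle and myoblast fusion genes 1 was reached, mbc (rank 1030), and of 15 nervous system genes 1, elav, the neuronal RNA-binding protein (rank 158). No cluster promoter peak was found for 8 Hox genes, 16 ecdysone response genes, 4 Snail family genes or 17 Wnt and Hedgehog signalling genes. At the share of 2.99% over all protein-coding genes, groups this small can hold none, so this is no result about them. Peaks of pairs reached 2 ecdysone response genes and 2 Wnt and Hedgehog signalling genes. Single peaks reached 3 ecdysone response genes, 1 Wnt and Hedgehog signalling gene and 1 Snail family gene.

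Growth, stress and small RNA genes completed the groups. Of 15 growth control genes 3 were reached, InR, the insulin receptor (rank 1905), Mnt, the antagonist of Myc (2513), and foxo (3191). Of 20 cell cycle genes 2 were reached, Dp, the partner of E2F (1116), and Cdk4 (3491, with replicate 3 at 28522). Of 14 heat shock genes 3 were reached, Hsp83 (rank 257; 815, 265 and 139 in the replicates), Hsp26 (1295) and Hsp22 (2404), the last 2 in 1 chain. Of 290 transfer RNA genes 2 were reached, of 269 small nucleolar RNA genes 1, and of 32 small nuclear RNA genes 0, beside 2.57% of all 18277 genes.

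Base composition at the summits differed little between the sets. The central 100 bp had a GC content of 33.9 ± 8.81% in cluster peaks and 33.7 ± 8.95% in single peaks (SD over peaks), and sequence 300 bp to either side had 43.7% in both. The difference of 0.21 points is a small part of the spread between peaks and turned negative under 3 of the alternative settings. In the replicates' own lists it was 0.25, 0.26 and 0.34 points, positive in 3 of 3 (0.28 ± 0.05, SD, n = 3; exact sign-flip permutation p = 0.25).

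Of the 14 motifs, TATAAA had the widest gap in the optimal list and CGATA the widest on average in the replicates' own lists. TATAAA was found on either strand within the central 100 bp of 24.6% of cluster peaks (interval 21.8 to 27.6) and 19.8% of single peaks (interval 18.0 to 21.6), beside 21.6% of all optimal peaks and 17.6% of 23584 windows of the same length upstream of annotated start sites. In the replicates' own lists the share of cluster peaks with TATAAA was higher by 1.97, 2.00 and 2.84 points. CGATA, the core that BEAF-32 recognises, was rarer in clusters, at 15.4% (interval 13.1 to 17.9) against 18.4% (interval 16.8 to 20.3) in single peaks and 23.8% of the start-site windows, with differences of -3.55, -2.79 and -2.51 points in the replicates. CAGCTG was found in 4.45% of cluster peaks (interval 3.26 to 6.06) and 2.73% of single peaks (interval 2.09 to 3.57), and its differences in the replicates were 0.0335, 0.992 and 0.996 points. TAATTA (1.41 ± 1.01 points), TGANTCA (-0.76 ± 0.44) and CACACACA (0.38 ± 0.40) also kept 1 sign in 3 of 3 replicates (SD, n = 3). Each of these 6 motifs had an exact sign-flip permutation p of 0.25 over the replicates before any adjustment for 14 motifs, so none passes one.

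The intervals of cluster and single peaks overlapped for the 13 motifs other than TATAAA. The homeodomain core TAATTA was present in 10.9% of cluster peaks and 9.62% of single peaks, and TGANTCA, the AP-1 site, in 2.23% of cluster peaks and 2.73% of single peaks. GATAAG was found in 5.39% of cluster peaks and 5.57% of single peaks, and CACGTG in 1.06% of cluster peaks and 0.736% of single peaks. TATCGATA, the DNA replication-related element, which contains CGATA, was present in 2.58% of cluster peaks and 2.36% of single peaks. CAGGTAG, the Zelda site, was present in 0.703% of cluster peaks and 0.420% of single peaks. The Su(Hw) core GCATACTT and the M1BP motif GGTCACACT each had 0.821% of cluster peaks and 0.631% of single peaks. AAAAAAAA was found in 5.98% of cluster peaks and 6.52% of single peaks, and CACACACA in 0.821% of cluster peaks and 0.946% of single peaks. In the start-site windows the shares were 14.5% for GAGAG, 7.87% for GATAAG, 6.78% for CAGCTG, 5.46% for TAATTA, 5.20% for AAAAAAAA, 4.32% for TATCGATA, 2.07% for CACACACA, 1.87% for TGANTCA, 1.62% for GGTCACACT, 1.07% for CACGTG, 0.636% for CAGGTAG and 0.360% for GCATACTT. TATAAA was the motif most often repeated inside a chain, with 54 of 240 chains holding it in 2 or more members. It was also the commonest of the 14 motifs, in 24.6% of cluster peaks and 21.6% of all optimal peaks. Whether it recurred within chains more often than its share gives was not tested.

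The pooled list held more weak peaks around clusters. Within 5 kb of a cluster summit there was a mean of 4.03 summits of the pooled relaxed list that were not in the optimal list, against 3.24 around a single peak. In the replicates' own lists the difference was -0.0643, 0.972 and 0.709, so that replicate 1 did not share it, and the exact sign-flip permutation p was 0.5. Clusters were found on all major arms. X held 18.8% of cluster peaks and 17.6% of single peaks, 2L 19.3% of cluster peaks and 17.0% of single peaks, and 2R 17.5% of cluster peaks and 18.1% of single peaks. 3L held 23.4% of cluster peaks and 22.4% of single peaks, and 3R 21.0% of cluster peaks and 24.1% of single peaks. Chromosome 4 held 0 of 853 cluster peaks (upper limit of the 95% Wilson interval 0.448%), 4 peaks of pairs (0.401%) and 15 single peaks (0.788%). Peaks of a chain are not independent, so that limit covers counting error only.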

How the data were processed

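Anti-GFP ChIP-seq peak lists of 3 biological replicates of tagged CG18764 embryos were used on dm6. Per the deposited file listing, the authors made relaxed lists per replicate and from pooled replicates as input for IDR, against 1 control dataset, and an optimal list of 3754 peaks; no source used here names the aligner, the peak caller or its thresholds. The deposited signal value is a score of unstated scale and was used only for ranks; the deposited summit offset gave positions. The members, the 21 gene lists (symbols matched to the Ensembl release 115 annotation, 6 symbols unmatched and left out) and the 14 motifs were chosen with earlier results of these data known. Summits were chained, placed on the annotation (start site within 500 bp first, then UTR, coding exon, noncoding exon, intron, intergenic) and matched to replicate summits within 100 bp in Python 3.11.15 with pandas 2.3.3, numpy 2.4.6 and scipy 1.17.1; sequence was read from the NCBI dm6 reference. The code was tested on simulated chains. Differences over replicates were tested by an exact sign-flip permutation over 3 replicates, and shares carry 95% Wilson intervals for counting error. Named chains are the 10 with most peaks and the 10 with the highest leader (19 in all), with the 5 highest single peaks and up to 4 genes a list by rank; further genes of a list, and genes named for sharing a chain, were named after their values were seen. Alternatives varied the chain limit, the list, the merging of close summits and the replicates.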

Additional observations from a re-analysis of the deposited data

How the results depend on the processing

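The number of cluster peaks followed the rule and the list. Against 853, it was 376 with a 2500 bp limit, 1597 with 10000 bp, 391 for chains of 4 or more, 217 in the upper 1877 peaks of the list, 245 among peaks of all 3 replicates and 327 to 372 when a replicate was left out; merging summits within 400 bp gave 716 and the dm3 list 798. The mean over the replicates' own lists fell to 211 with lists of 1877 peaks, against 846. The promoter share difference of -8.61 points stayed negative in every setting run: -16.6 (2500 bp), -4.06 (10000 bp), -11.7 (4 or more), -14.0 (upper 1877), -11.3 (merged) and -11.3 to -8.42 with a replicate left out. The GC difference of 0.21 changed sign with the rule: 0.38 (2500 bp), -0.21 (10000 bp), -0.27 (4 or more), 0.26 (upper 1877), 0.47 (peaks of all 3 replicates), -0.0365 (merged), 0.0023 (central 200 bp) and 0.24 to 0.77 with a replicate left out; the cause was not tested. Cluster peaks ranked higher than single peaks in every setting (-131 to -439 ranks). The recovery difference was 0.143 to 5.19 points, apart from the lists limited to recovered peaks, where it is 0 by construction, and the difference in the median number of start sites was 0 in all these settings of the optimal list, and 1, 0 and 0 in the replicates' own lists. Samples could not be paired between groups because they form 1 group. Cluster and single peaks were paired within each replicate in the sign-flip permutation tests. Sequencing depth is unknown, and 3 replicates cannot give a p below 0.25.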
